A study of Mus musculus with 28 samples.

Results

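A set of 10 genes of the fibroblast growth factor (FGF) pathway were followed by RNA sequencing in O9-1 cells, a mouse line of cranial neural crest cells, the embryonic cells that form much of the face. They are the receptors Fgfr1, Fgfr2 and Fgfr3, the Sprouty genes Spry1, Spry2 and Spry4, the phosphatase genes Dusp4 and Dusp6, and the transcription factor genes Etv4 and Etv5. They were chosen by gene symbol with earlier results of these data known, and all 10 were found among the 54429 genes of the deposited count table. There were 28 libraries from 8 groups, the cells of each culture condition having been kept at 21% O2 (normoxic, 4 libraries per condition) or 0.5% O2 (hypoxic, 3 per condition). Proliferating cells grew in STO-conditioned medium with 15% fetal calf serum, basic FGF (bFGF) at 25 ng/ml and leukaemia inhibitory factor (LIF) at 5 ng/ml. Chondrocyte cultures had 3 days of osteogenic medium, then 7 days as micromasses with 5% serum, TGF-beta3 at 10 ng/ml, BMP-2 at 50 ng/ml and dexamethasone at 0.1 µM. Osteoblast cultures had 10 days of medium with 10% serum, BMP-2 at 100 ng/ml and dexamethasone at 0.1 µM. Smooth muscle cultures had 3 days of medium with 10% serum. Only the proliferation medium is described with added bFGF, but the media also differ in serum, LIF, conditioning, other factors and days of culture, so the effects of these on the 10 genes cannot be told apart. The labels name 1 cell line and do not say whether replicates were separate cultures, so the p-values measure the spread between these libraries.

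FGFs bind receptor tyrosine kinases, which signal through RAS, RAF and MEK to the kinases ERK1 and ERK2. ERK signalling switches on genes that dampen it, among them the Sprouty proteins, which act on the pathway above ERK, and the dual-specificity phosphatases, which remove phosphate from ERK itself. Etv4 and Etv5 encode ETS-family transcription factors that lie downstream of FGF signalling in many embryonic tissues. In the skeleton, FGFR3 is known for restraining growth plate cartilage, and FGFR1 and FGFR2 for roles in bone-forming cells and skull sutures.

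Library totals ranged from 19869271 to 64693346 counts. Levels are given as CPM (a gene's counts relative to the library total) scaled by the trimmed mean of M values (TMM), and as RPKM (CPM per kilobase of annotated exon) wherever different genes are compared. The hypoxic smooth muscle libraries stood apart, with 11.6 to 13.3% of counts from mitochondrial ribosomal RNA against at most 0.0889% in all other libraries, and TMM factors of 0.505 to 0.533 against 0.901 to 1.29. Their 9 smooth muscle markers summed to 96.8 to 121 CPM, against 3610 to 4080 CPM in the normoxic smooth muscle cultures and 96.1 to 105 CPM in normoxic proliferating cells, so the data go against that label. These markers do not single out the smooth muscle medium, since the normoxic osteoblast libraries held 3680 to 5200 CPM. The 12 chondrocyte markers were highest in the chondrocyte cultures (5530 to 15500 CPM, at most 3010 CPM elsewhere). The 10 osteoblast markers summed to more in the chondrocyte cultures (38600 to 51800 CPM) than in the osteoblast cultures (6740 to 15600 CPM). Ibsp, a bone matrix gene, averaged 1.13 ± 1.38 CPM (SD, n = 4) in the normoxic osteoblast libraries. Of 9 osteoblast markers tested there against normoxic proliferating cells, 5 were higher and 3 lower (edgeR, adjusted p under 0.05) and 1 was neither. Of all genes, 40.9% were higher and 37.8% lower in that comparison. Replicate 4 of the normoxic osteoblast group also stood apart, being the highest of its group in 11 of the 12 chondrocyte markers, all but Col11a1, with Col2a1, the main cartilage collagen gene, at 775 CPM against 35.6 to 43.6 CPM in the others. The 13 neural crest markers summed to 3380 to 3610 CPM in normoxic and 4130 to 4310 CPM in hypoxic proliferating cells, where Sox10 and Ngfr were at 0 counts, and to 1100 to 4100 CPM in the differentiated groups. Groups are therefore named below by their culture conditions. In bulk RNA, fewer expressing cells and less RNA per cell cannot be told apart.

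Of the 6 genes that were lower in the 3 normoxic differentiation media, Dusp6, Etv5 and Spry2 have a RefSeq start-site window that overlaps no annotated exon, and these windows are shown because the genes fell in all 6 comparisons of differentiated with proliferating cells. Each run is the 250 bases before the annotated start in GRCm38.p6, written 5′ to 3′ on the gene's strand, with GGAA or its reverse complement TTCC, the core of sites bound by ETS-family factors, in capitals. The Dusp6 window is chr10:99262981-99263230 on the plus strand, the Etv5 window is chr16:22438369-22438618 on the minus strand, inside the Etv5 gene at an internal start, and the Spry2 window is chr14:105896820-105897069 on the minus strand.
Dusp6: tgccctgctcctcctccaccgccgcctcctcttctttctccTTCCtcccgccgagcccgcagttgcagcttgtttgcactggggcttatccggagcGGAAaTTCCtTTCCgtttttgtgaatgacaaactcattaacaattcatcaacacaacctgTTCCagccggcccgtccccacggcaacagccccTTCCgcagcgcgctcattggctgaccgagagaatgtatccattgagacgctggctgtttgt
Etv5: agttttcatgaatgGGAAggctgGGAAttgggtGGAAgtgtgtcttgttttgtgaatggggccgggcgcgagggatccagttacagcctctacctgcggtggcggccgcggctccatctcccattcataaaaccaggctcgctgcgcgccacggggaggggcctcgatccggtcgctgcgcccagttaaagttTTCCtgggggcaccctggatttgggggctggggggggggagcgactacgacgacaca
Spry2: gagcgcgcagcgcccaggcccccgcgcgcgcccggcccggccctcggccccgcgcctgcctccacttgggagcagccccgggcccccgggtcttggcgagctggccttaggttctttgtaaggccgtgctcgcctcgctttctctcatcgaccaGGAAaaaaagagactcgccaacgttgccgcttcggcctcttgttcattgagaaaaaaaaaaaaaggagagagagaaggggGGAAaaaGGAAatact
The core occurred 6 times in the Dusp6 window, 4 times in the Etv5 window and 3 times in the Spry2 window, and 93.4% of 32851 RefSeq windows of this length hold at least 1, with a median of 3. The longer ETS site CCGGAA, the AP-1 site TGANTCA and the cyclic AMP response element TGACGTCA, each searched on both strands, were in none of the 3 windows, and in 12.0%, 6.75% and 1.55% of all windows. CCGGAA contains the core GGAA, so those matches overlap. These matches are a description of the letters and show no binding.

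Fgfr1 (ENSMUSG00000031565, chr8:25513654-25575718, plus strand) was the main receptor of proliferating cells. Gene positions are from GENCODE vM21 on GRCm38, the assembly also called mm10. Its level was 164, 160, 153 and 196 CPM in the normoxic and 142, 139 and 134 CPM in the hypoxic proliferating libraries. All differentiated normoxic libraries were higher, at 288 to 304 CPM in chondrocyte, 412 to 566 CPM in osteoblast and 455 to 498 CPM in smooth muscle cultures. At 0.5% O2 the differentiated libraries lay between 173 and 307 CPM and overlapped between the 3 conditions with TMM scaling, but with library size alone the smooth muscle libraries (87.4 to 149 CPM) lay below all other hypoxic libraries, proliferating cells included (154 to 164 CPM). Its log2 fold change from normoxic proliferating cells was 0.89 (SE 0.08) in chondrocyte, 1.69 (SE 0.12) in osteoblast and 1.53 (SE 0.08) in smooth muscle cultures.

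Fgfr2 (ENSMUSG00000030849, chr7:130162451-133123350, minus strand) had the widest range of the receptors that were detected in every library. The proliferating libraries held 4.79, 4.23, 5.20 and 6.58 CPM at 21% O2 and 3.61, 4.38 and 5.24 CPM at 0.5% O2. Normoxic osteoblast libraries held 631, 646, 623 and 956 CPM, and hypoxic ones 645, 576 and 455 CPM. The osteoblast groups overlapped each other and lay above every other library. Chondrocyte libraries held 158, 188, 169 and 223 CPM at 21% O2 and 59.2, 80.4 and 66.2 CPM at 0.5% O2. Smooth muscle libraries held 158, 150, 153 and 138 CPM at 21% O2 and 7.35, 7.38 and 7.32 CPM at 0.5% O2, so the hypoxic ones lay just above the proliferating cells with TMM scaling, but below them with library size alone (3.72 to 3.91 against 4.16 to 7.86 CPM). From normoxic proliferating cells the log2 fold change was 7.17 (SE 0.23) in osteoblast, 5.25 (SE 0.16) in chondrocyte and 4.94 (SE 0.11) in smooth muscle cultures.

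Fgfr3 (ENSMUSG00000054252, chr5:33721674-33737068, plus strand) was all but absent from proliferating cells, with 2 counts over the 4 normoxic libraries and 5 counts over the 3 hypoxic ones, all 5 in replicate 3. Normoxic chondrocyte libraries held 95.7, 143, 114 and 54.3 CPM and hypoxic ones 13.9, 20.2 and 28.8 CPM, without overlap. Hypoxic osteoblast libraries held 127, 108 and 74.9 CPM. Of the normoxic osteoblast libraries, 3 held 15.8, 15.0 and 16.6 CPM and replicate 4 held 159 CPM, so the group's mean of 51.5 ± 71.4 CPM (SD, n = 4) describes none of its libraries. Smooth muscle libraries held 2.00 to 3.03 CPM at 21% O2, and at 0.5% O2 only 1 count was found over 3 libraries. Because the proliferating groups hold so few counts, changes are given as ratios of summed scaled counts with 95% intervals that cover counting error only. Against normoxic proliferating cells the ratio was 8550 (2370 to 70600) in chondrocyte, 4650 (1290 to 38400) in osteoblast and 222 (61 to 1840) in smooth muscle cultures. Against hypoxic proliferating cells it was 369 (158 to 1140) in hypoxic chondrocyte and 1800 (772 to 5550) in hypoxic osteoblast cultures. Without normoxic osteoblast replicate 4 the normoxic osteoblast ratio was 1350 (372 to 11100). Without normoxic proliferating replicate 1 the 3 normoxic ratios were 13400, 7260 and 347, and without hypoxic proliferating replicate 1 the 2 hypoxic ones were 239 and 1170.

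The mix of receptors differed by condition. Per exon length, Fgfr1 made up 97.1 ± 0.3% (SD, n = 4) of the summed RPKM of Fgfr1 to Fgfr4 in normoxic proliferating cells and 96.9 ± 0.9% (SD, n = 3) in hypoxic ones. In normoxic osteoblast cultures Fgfr2 was the largest part, at 53.1 ± 4.1%, and Fgfr1 held 42.0 ± 10.2% (SD, n = 4). Hypoxic osteoblast cultures held 55.8 ± 0.4% Fgfr2, 29.5 ± 1.5% Fgfr1 and 14.7 ± 1.3% Fgfr3 (SD, n = 3). Normoxic chondrocyte cultures had the most even mix, with 48.6 ± 3.7% Fgfr1, 28.8 ± 5.2% Fgfr2 and 22.6 ± 7.1% Fgfr3 (SD, n = 4). Hypoxic chondrocyte cultures held 74.6 ± 2.0% Fgfr1, 17.6 ± 1.5% Fgfr2 and 7.72 ± 2.34% Fgfr3 (SD, n = 3). In smooth muscle medium Fgfr1 held 76.1 ± 1.6% (SD, n = 4) at 21% O2 and 96.9 ± 0.8% (SD, n = 3) at 0.5% O2, the latter within the range of the proliferating libraries. The summed receptor level was 14.5 ± 0.3 RPKM (SD, n = 3) in hypoxic proliferating cells and highest in normoxic osteoblast cultures (129 ± 18 RPKM, SD, n = 4). Fgfr4 averaged at most 0.0829 CPM in any group.

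**Figure D1:**
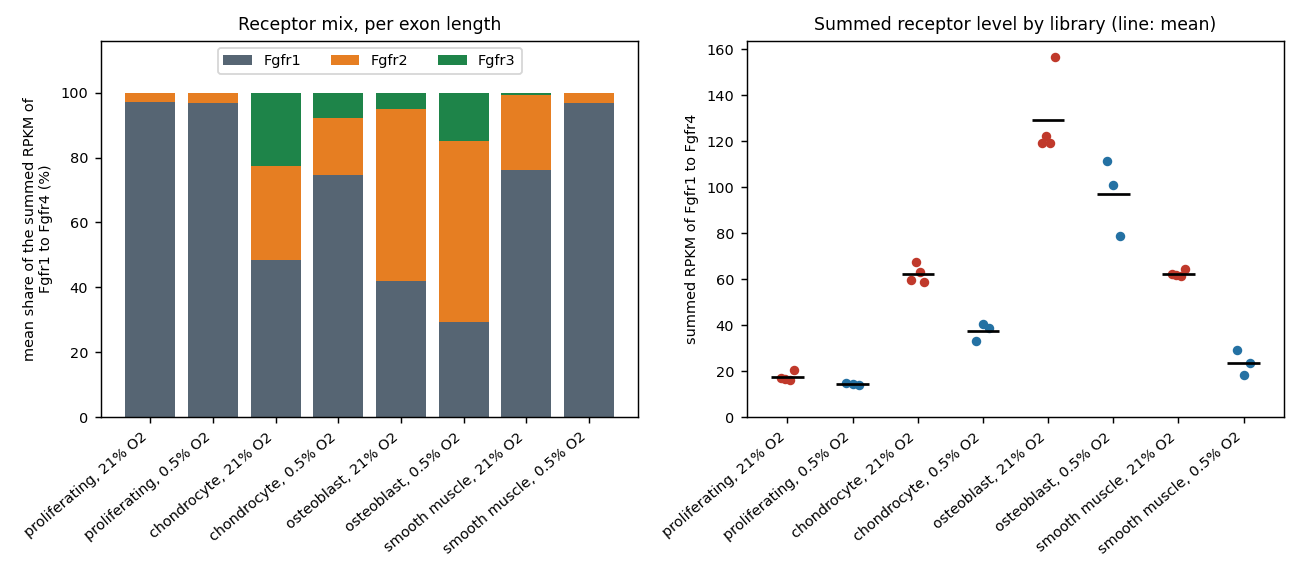
Left, mean share (%) of Fgfr1, Fgfr2 and Fgfr3 in the summed RPKM of Fgfr1 to Fgfr4 in each of the 8 groups, as stacked bars. Right, the summed RPKM of each library (points, red 21% O2, blue 0.5% O2) with the group mean (line). Fgfr1 holds 97.1% in normoxic proliferating cells and 42.0% in normoxic osteoblast cultures, and the hypoxic smooth muscle bar resembles the proliferating ones.

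Spry1 (ENSMUSG00000037211, chr3:37639947-37644598, plus strand) followed Fgfr1 most closely of the receptors, and not the other Sprouty genes. Pearson's r of log2(CPM + 1) over the 28 libraries was 0.891 with Fgfr1, 0.754 with Fgfr2 and 0.411 with Fgfr3. It was −0.461 with Spry2 and −0.314 with Spry4. Proliferating cells held little Spry1, at 1.71 ± 0.26 CPM (SD, n = 4) at 21% O2 and 2.39 ± 0.51 CPM (SD, n = 3) at 0.5% O2. Normoxic smooth muscle libraries held 11.6, 14.3, 12.3 and 14.1 CPM, above every other library, and hypoxic ones 3.90, 2.19 and 3.24 CPM, overlapping the hypoxic proliferating cells with TMM scaling but below them with library size alone (1.11 to 2.08 against 2.13 to 3.26 CPM). Normoxic osteoblast libraries held 10.3, 9.74 and 11.3 CPM in replicates 1 to 3 and 3.27 CPM in replicate 4. Normoxic chondrocyte libraries lay between 4.63 and 7.31 CPM.

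Spry2 (ENSMUSG00000022114, chr14:105891947-105896819, minus strand) was highest in proliferating cells, with 91.7, 95.5, 91.7 and 101 CPM at 21% O2 and 117, 122 and 117 CPM at 0.5% O2. No differentiated library reached these values, the highest being 44.5 CPM. The lowest group was normoxic chondrocyte, at 9.54, 7.36, 9.24 and 10.8 CPM, and its log2 fold change from normoxic proliferating cells was −3.28 (SE 0.10). Smooth muscle libraries held 38.0 to 42.6 CPM at 21% O2 and 30.3 to 44.5 CPM at 0.5% O2. The hypoxic ones overlapped the hypoxic osteoblast libraries (25.7 to 31.0 CPM) with TMM scaling, but lay below them with library size alone (15.3 to 23.0 against 25.1 to 30.8 CPM).

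Spry4 (ENSMUSG00000024427, chr18:38586247-38601415, minus strand) stood at 51.3, 47.8, 49.3 and 57.0 CPM in normoxic and 30.1, 35.8 and 33.1 CPM in hypoxic proliferating libraries. Chondrocyte libraries held 3.15, 3.15, 4.34 and 3.42 CPM at 21% O2 and 1.26, 0.787 and 1.08 CPM at 0.5% O2, the latter below every other library. Normoxic osteoblast libraries held 11.4, 12.3 and 10.2 CPM in replicates 1 to 3 and 2.43 CPM in replicate 4, which lay below the normoxic chondrocyte libraries. The log2 fold change from proliferating cells at the same oxygen level was −3.79 (SE 0.11) in normoxic and −4.97 (SE 0.16) in hypoxic chondrocyte cultures. Per exon length, normoxic proliferating cells held 45.5 RPKM of Spry2, 10.8 RPKM of Spry4 and 0.590 RPKM of Spry1.

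Dusp6 (ENSMUSG00000019960, chr10:99263231-99267489, plus strand) encodes the cytoplasmic phosphatase that acts on ERK. It held 88.8, 93.1, 89.7 and 87.2 CPM in normoxic and 129, 127 and 127 CPM in hypoxic proliferating libraries. The lowest group was normoxic osteoblast at 3.95, 4.97, 4.41 and 3.62 CPM, against 26.9, 29.5 and 31.0 CPM in hypoxic osteoblast libraries. Normoxic smooth muscle libraries held 7.97 to 10.5 CPM and hypoxic ones 31.3 to 36.2 CPM, again without overlap. The chondrocyte groups overlapped each other, at 6.43 to 13.5 CPM and 9.20 to 11.5 CPM.

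Dusp4 (ENSMUSG00000031530, chr8:34807297-34819894, plus strand), a nuclear phosphatase of the same family, held 38.8 ± 2.5 CPM (SD, n = 4) in normoxic and 41.2 ± 3.6 CPM (SD, n = 3) in hypoxic proliferating cells. Normoxic osteoblast libraries held 1.12, 0.513, 0.746 and 0.577 CPM and normoxic smooth muscle libraries 2.91, 2.17, 2.18 and 2.57 CPM. Their hypoxic counterparts held 5.15, 6.80 and 6.90 CPM in osteoblast and 50.9, 64.8 and 42.5 CPM in smooth muscle cultures, so the last group overlapped the proliferating cells with TMM scaling, but lay below them with library size alone (at most 32.7 against at least 42.2 CPM). In normoxic chondrocyte cultures, replicate 1 held 28.7 CPM and the other libraries 12.6 to 14.7 CPM.

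Etv4 (ENSMUSG00000017724, chr11:101769742-101785371, minus strand) fell most in normoxic osteoblast cultures. Proliferating libraries held 115, 114, 107 and 122 CPM at 21% O2 and 84.2, 84.4 and 80.2 CPM at 0.5% O2. Normoxic osteoblast libraries held 0.244, 0.158, 0.339 and 0.480 CPM, and the log2 fold change was −8.45 (SE 0.18). Hypoxic osteoblast libraries held 9.37, 9.14 and 8.48 CPM. Normoxic smooth muscle libraries held 2.93 to 6.33 CPM and hypoxic ones 64.0, 85.5 and 68.8 CPM, which overlapped the hypoxic proliferating cells with TMM scaling, but lay below them with library size alone (34.1 to 43.1 against 92.1 to 98.4 CPM). In normoxic chondrocyte cultures, replicate 1 held 13.4 CPM and the other libraries 3.49 to 5.62 CPM.

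Etv5 (ENSMUSG00000013089, chr16:22381309-22439719, minus strand) held 132 to 151 CPM in normoxic and 158 to 170 CPM in hypoxic proliferating libraries. No differentiated library exceeded 36.7 CPM. Hypoxic smooth muscle libraries, at 30.2, 27.7 and 36.7 CPM, were the highest of these with TMM scaling, but with library size alone they held 14.0 to 19.0 CPM and overlapped the normoxic smooth muscle libraries (16.7 to 21.0 CPM). Hypoxic chondrocyte libraries, at 8.05, 7.17 and 8.21 CPM, were below all normoxic chondrocyte libraries (11.2 to 14.1 CPM). In normoxic osteoblast cultures, replicate 4 held 2.95 CPM and the other libraries 10.2 to 11.8 CPM.

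**Figure D2:**
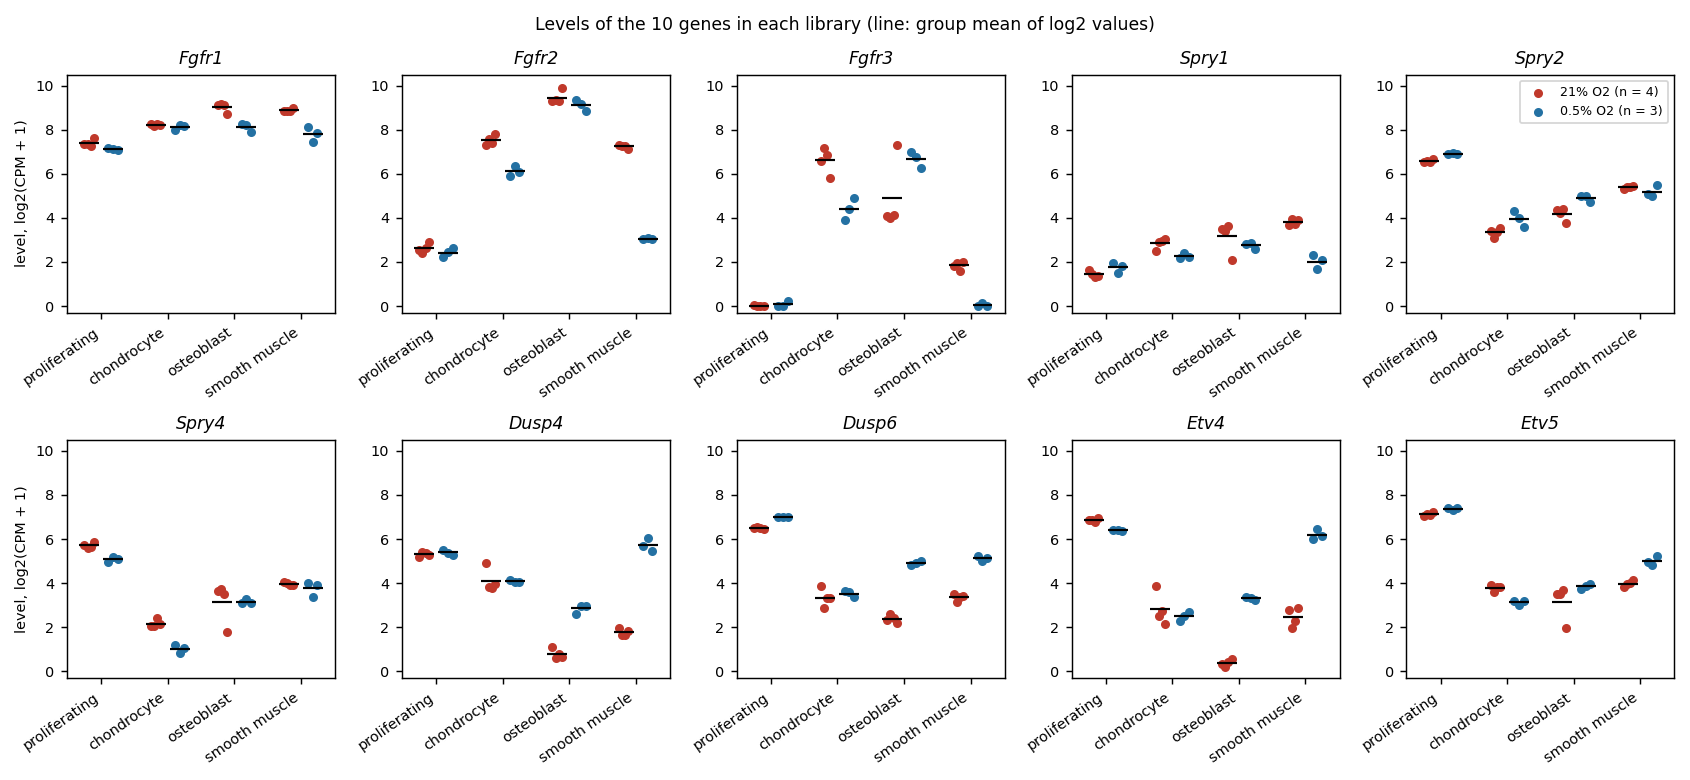
Level of each of the 10 genes as log2(CPM + 1) in every library (points, red 21% O2 with n = 4, blue 0.5% O2 with n = 3) by culture condition, with the group mean of the log2 values (line). Spry2, Spry4, Dusp6 and Etv5 lie highest in proliferating cells, and Fgfr1 and Fgfr2 lie lower there than in any normoxic differentiated culture. Fgfr3 is near 0 in proliferating and in hypoxic smooth muscle cultures.

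How the 10 genes changed from proliferating to differentiated cells was tested at each oxygen level with edgeR's quasi-likelihood test, and a gene was called at a Benjamini-Hochberg adjusted p under 0.05 over all genes tested. In normoxic chondrocyte cultures all 10 were called, Fgfr1, Fgfr2, Fgfr3 and Spry1 higher and Spry2, Spry4, Dusp4, Dusp6, Etv4 and Etv5 lower, where 74.9% of all 14360 genes tested were called, 37.7% higher and 37.2% lower. The same 4 genes were higher and the same 6 lower in normoxic osteoblast and normoxic smooth muscle cultures, where 78.7% of genes (40.9% higher, 37.8% lower) and 79.7% of genes (40.8% higher, 38.9% lower) were called. With such backgrounds, a count of 10 called genes says little by itself. These 3 comparisons share their control libraries.

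Among the 6 genes that fell, the order of the falls differed by condition. In normoxic chondrocyte cultures the log2 fold change was −3.97 (SE 0.38) for Etv4, −3.79 (SE 0.11) for Spry4 and only −1.09 (SE 0.25) for Dusp4. In normoxic osteoblast cultures it was −8.45 (SE 0.18) for Etv4, −5.65 (SE 0.19) for Dusp4, −4.35 (SE 0.10) for Dusp6 and −2.39 (SE 0.14) for Spry2. In normoxic smooth muscle cultures it was −4.54 (SE 0.20) for Etv4, −3.93 (SE 0.10) for Dusp4 and −1.17 (SE 0.06) for Spry2. Etv4 had the largest fall of the 6 in osteoblast and smooth muscle cultures, while in chondrocyte cultures Etv4 and Spry4 differed by less than the SE of Etv4. Every call of the 10 genes in these 3 comparisons held with any 1 of the 8 libraries left out, including normoxic osteoblast replicate 4, without which Etv4 was at −8.80 and Fgfr2 at 6.98.

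At 0.5% O2 the same 4 genes were higher and the same 6 lower in chondrocyte and osteoblast cultures than in proliferating cells, where 69.5% of all genes (34.9% higher, 34.6% lower) and 71.3% of all genes (36.2% higher, 35.1% lower) were called. The log2 fold change of Etv5 was −4.40 (SE 0.08) in chondrocyte and −3.62 (SE 0.09) in osteoblast cultures, and Fgfr2 rose by 3.95 (SE 0.15) and 6.98 (SE 0.16). The rise of Spry1 in hypoxic chondrocyte cultures, 0.67 (SE 0.23), was no longer called without hypoxic proliferating replicate 2 (0.51) or hypoxic chondrocyte replicate 2 (0.58), or with scaling by library size alone (0.34).

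Hypoxic smooth muscle cultures differed from this pattern, with 9 genes tested (Fgfr3 was too low) and 7 called, 3 higher and 4 lower, where 70% of all genes were called, 33.8% higher and 36.2% lower. Spry2 (−1.60, SE 0.12), Spry4 (−1.23, SE 0.17), Dusp6 (−1.80, SE 0.09) and Etv5 (−2.27, SE 0.10) fell on the log2 scale. Etv4, at −0.07 (SE 0.11), and Spry1, at 0.51 (SE 0.35), were not called, but Etv4 was called lower without hypoxic smooth muscle replicate 2 (−0.21) and with scaling by library size alone (−1.35). Fgfr1 (0.83, SE 0.14), Fgfr2 (0.86, SE 0.23) and Dusp4 (0.48, SE 0.14) were called higher with TMM, but with scaling by library size alone all 3 turned negative, to −0.44, −0.42 and −0.80, and Dusp4 was not called without hypoxic proliferating replicate 3 (0.41) or when all 8 groups shared one fit (0.40). Under that scaling the median of all genes moved from −0.07 to −1.35, so relative to it these 3 genes stayed higher. Beside these values stand the high mitochondrial ribosomal RNA share and the low TMM factors of the hypoxic smooth muscle libraries, and their part in the result was not tested.

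**Figure D3:**
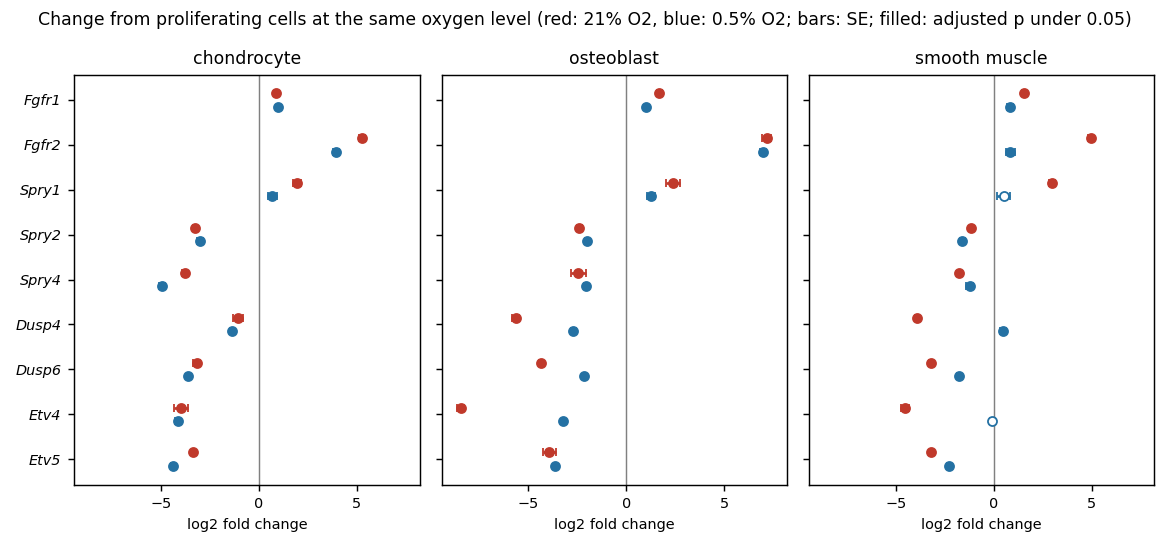
Log2 fold change from proliferating cells at the same oxygen level (x axis) for 9 of the genes in chondrocyte, osteoblast and smooth muscle cultures, red at 21% O2 and blue at 0.5% O2, with SE bars and filled points for an adjusted p under 0.05 in edgeR. Fgfr3 is not drawn because proliferating cells hold too few counts. In smooth muscle cultures Etv4 lies at −4.54 at 21% O2 and at −0.07 at 0.5% O2.

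Proliferation markers also fell, all 10 of them called lower in each of the 6 comparisons with proliferating cells, where 34.6 to 38.9% of all genes were lower. This included hypoxic smooth muscle cultures, in which Spry2, Spry4, Dusp6 and Etv5 were called lower with TMM scaling and Dusp4 and Etv4 were not. At 0.5% O2 in proliferating cells 9 of the 10 markers were lower, where 32.3% of all genes were. Of the FGF genes, Dusp6, Spry2 and Etv5 were called higher there, and Spry4, Etv4 and Fgfr1 lower. The 10 markers, among them Mki67 and Top2a, summed to 2040 to 2510 CPM in normoxic and 1490 to 1510 CPM in hypoxic proliferating libraries. They summed to 489 to 787 CPM in normoxic chondrocyte, 109 to 190 CPM in normoxic osteoblast and 436 to 507 CPM in normoxic smooth muscle cultures, and to 379 to 446, 335 to 420 and 620 to 690 CPM in the hypoxic counterparts. None of the 10 was at 0 counts in any group. Their part in the changes of the FGF genes was not tested.

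The effect of oxygen was then tested within each condition. In proliferating cells the changes were small, and of 9 genes tested 3 were higher and 3 lower at 0.5% O2, where 65.4% of all genes were called, 33.1% higher and 32.3% lower. Dusp6 rose by 0.57 (SE 0.04), Spry2 by 0.38 (SE 0.05) and Etv5 by 0.30 (SE 0.06) on the log2 scale. Spry4 (−0.58, SE 0.08), Etv4 (−0.41, SE 0.06) and Fgfr1 (−0.22, SE 0.08) fell. When all 8 groups shared one fit, 2 of these 6 calls were left, Dusp6 and Spry2, and Fgfr1 was also not called without hypoxic proliferating replicate 2 (−0.23) or 3 (−0.20). Spry1 (0.53, SE 0.23), Dusp4 (0.14, SE 0.07) and Fgfr2 (−0.17, SE 0.19) were not called. Spry1 was called higher without normoxic proliferating replicate 1 (0.64) or hypoxic proliferating replicate 2 (0.69) or when genes needed 10 counts in all libraries (0.55), and Dusp4 without hypoxic proliferating replicate 3 (0.20).

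In chondrocyte cultures Fgfr2 and Fgfr3 were lower at 0.5% O2, and Fgfr1 was not called. Of the 10 genes 5 were lower and 1 higher, where 22.2% of all genes were called, 10.4% higher and 11.8% lower. On the log2 scale Fgfr3 (−2.28, SE 0.43), Spry4 (−1.75, SE 0.25), Fgfr2 (−1.43, SE 0.14), Etv5 (−0.73, SE 0.13) and Spry1 (−0.72, SE 0.19) fell. The edgeR adjusted p was 1.4e-04 for Fgfr2, which was lower in 3 of 3 hypoxic libraries than in any normoxic one, and 5.7e-04 for Spry4, for which the same held. Spry2 rose by 0.67 (SE 0.18). Fgfr1 (−0.11, SE 0.07), Dusp4 (−0.12, SE 0.30), Dusp6 (0.15, SE 0.22) and Etv4 (−0.55, SE 0.46) were not called. The calls of Fgfr3, Spry1 and Spry2 depended on single libraries. Of the 6 calls, 5 held under every alternative that kept all libraries. Fgfr3 was lost without hypoxic chondrocyte replicate 2 (−2.26). Spry1 was lost without normoxic chondrocyte replicate 3 (−0.69) or hypoxic chondrocyte replicate 1 (−0.66) or 3 (−0.69). Spry2 was lost without normoxic chondrocyte replicate 2 (0.58) or 3 (0.66) or hypoxic chondrocyte replicate 1 (0.47) or 2 (0.67). Marker lists also differed, the chondrocyte markers summing to 7520 to 15500 CPM at 21% O2 and 5530 to 5860 CPM at 0.5% O2. The proliferation markers summed to 489 to 787 CPM at 21% O2 and 379 to 446 CPM at 0.5% O2. The hypoxia response markers summed to 2200 to 3360 CPM and 7660 to 8410 CPM. The part of these markers in the changes was not tested.

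In osteoblast cultures the phosphatase genes and Etv4 were higher at 0.5% O2. Of the 10 genes 4 were higher and 1 lower, where 54.3% of all genes were called, 27% higher and 27.3% lower. Etv4 rose by 4.83 (SE 0.28), Dusp4 by 3.08 (SE 0.28), Dusp6 by 2.78 (SE 0.13) and Spry2 by 0.75 (SE 0.16) on the log2 scale, and Fgfr1 fell by 0.90 (SE 0.14). For Dusp6 the edgeR adjusted p was 5.2e-07, and the 3 hypoxic libraries were higher than all 4 normoxic ones. Fgfr2, Fgfr3, Spry1, Spry4 and Etv5 were not called, at −0.36 (SE 0.18), 0.99 (SE 0.99), −0.58 (SE 0.37), −0.20 (SE 0.46) and 0.61 (SE 0.39). Without normoxic osteoblast replicate 4, 9 of the 10 were called, and 9377 of all genes against 7890 with all libraries. Fgfr3 was then higher by 2.71 and Etv5 by 0.32 on the log2 scale, and Spry1 was at −0.85 and Spry4 at −0.52. That library had the group's lowest Fgfr1 (412 CPM) and highest Fgfr2 (956 CPM) and Fgfr3 (159 CPM). Its 12 chondrocyte markers summed to 3010 CPM against 1829 to 1862 CPM in the other 3 libraries, and the part of these markers in its FGF gene levels was not tested. Marker lists also differed between the oxygen levels in osteoblast cultures. Of the 10 proliferation markers 7 were higher and 0 lower at 0.5% O2, summing to 335 to 420 CPM against 109 to 190 CPM. Of 9 osteoblast markers tested 6 were higher and 1 lower, and all 10 on the list summed to 13700 to 15600 CPM against 6740 to 10500 CPM. Of 8 smooth muscle markers tested 0 were higher and 6 lower, and all 9 on the list summed to 2220 to 2500 CPM against 3680 to 5200 CPM. The part of these markers in the changes of the FGF genes was not tested.

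In smooth muscle medium the Dusp genes, Etv4 and Etv5 were higher and the receptors and Spry1 lower at 0.5% O2. Of the 10 genes 4 were higher and 4 lower, where 75.6% of all genes were called, 35.4% higher and 40.2% lower. Dusp4 rose by 4.49 (SE 0.17), Etv4 by 4.00 (SE 0.21), Dusp6 by 1.91 (SE 0.13) and Etv5 by 1.15 (SE 0.13) on the log2 scale, and with scaling by library size alone these became 3.11, 2.62, 0.55 and −0.22. Fgfr2 (−4.29, SE 0.10), Spry1 (−1.99, SE 0.21) and Fgfr1 (−0.98, SE 0.12) fell, and with library size alone they were at −5.66, −3.35 and −2.35. For Fgfr3, the ratio of normoxic to hypoxic scaled counts was 89.2 (15.9 to 3530, 95% interval, counting error only), on 362 counts against 1, and 54.4 (9.69 to 2150) without hypoxic smooth muscle replicate 1. Spry2 (−0.12, SE 0.12) and Spry4 (−0.12, SE 0.16) were not called with TMM, but with scaling by library size alone both were called lower (−1.49 each), as the median of all genes moved from −0.12 to −1.49. Spry2 was also called lower without hypoxic smooth muscle replicate 3 (−0.31). With TMM scaling, the hypoxia response markers reached 37100 to 40000 CPM in the hypoxic smooth muscle libraries. The other hypoxic groups held at most 12400 CPM, the highest being hypoxic proliferating cells. Part of this gap comes from the TMM factors, 0.505 to 0.533 in the former and 1.15 to 1.17 in hypoxic proliferating libraries. Marker sums with library size alone are not given, so the size of the gap is not read further.

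**Figure D4:**
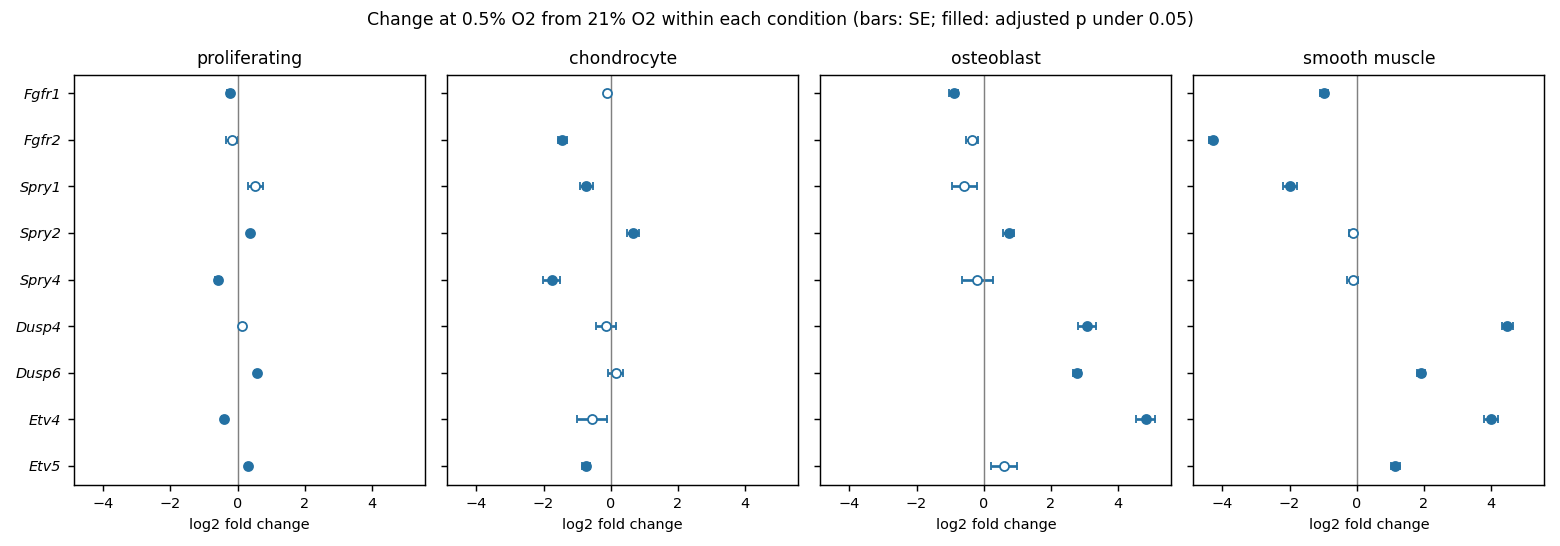
Log2 fold change at 0.5% O2 from 21% O2 (x axis) for 9 of the genes within proliferating, chondrocyte, osteoblast and smooth muscle cultures, with SE bars and filled points for an adjusted p under 0.05 in edgeR. Fgfr3 is not drawn. Dusp4, Dusp6 and Etv4 lie to the right in osteoblast (3.08, 2.78 and 4.83) and smooth muscle cultures (4.49, 1.91 and 4.00) and at 0.14, 0.57 and −0.41 in proliferating cells.

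Whether the change from proliferating to differentiated cells itself differed between oxygen levels was tested as an interaction term, hypoxic change minus normoxic change. In the chondrocyte condition 4 of 10 genes were called, all lower, where 43.5% of all genes were called, 21.6% higher and 21.9% lower. These were Fgfr2 (−1.27, SE 0.25), Spry1 (−1.24, SE 0.29), Spry4 (−1.14, SE 0.21) and Etv5 (−1.02, SE 0.11). Spry4 was not called when all 8 groups shared one fit (−1.11). Spry2 (0.30, SE 0.19) and Dusp6 (−0.41, SE 0.22) were not called. Spry2 was called without hypoxic chondrocyte replicate 3 (0.48) and Dusp6 without normoxic chondrocyte replicate 2 (−0.55). Fgfr3 (−4.29, SE 3.10) was not called either, but was under an alternative that kept all libraries. In the osteoblast condition 3 were called higher and 1 lower, where 54.2% of all genes were called, 28.9% higher and 25.3% lower. Etv4 (5.28, SE 0.19), Dusp4 (2.98, SE 0.23) and Dusp6 (2.26, SE 0.12) fell less at 0.5% O2, and Fgfr1 (−0.63, SE 0.16) rose less. Spry1 (−1.06, SE 0.45) and Spry2 (0.41, SE 0.17) were not called there, but both were without normoxic osteoblast replicate 4 (−1.34 and 0.28). Spry1 was also called without hypoxic proliferating replicate 2 (−1.21), and Spry2 without normoxic osteoblast replicate 1 (0.47) or 3 (0.49) or hypoxic osteoblast replicate 3 (0.50). In the smooth muscle condition 5 were higher and 5 lower, where 70.4% of all genes were called, 34.9% higher and 35.5% lower. The genes called included Etv4 (4.45, SE 0.24), Dusp4 (4.39, SE 0.18) and Fgfr2 (−4.09, SE 0.20). With scaling by library size alone, Spry4 (0.50 with TMM) and Etv5 (0.89 with TMM) turned to −0.83 and −0.45 in the smooth muscle term, and Dusp6 (1.39 with TMM) was no longer called (0.06). In that term Spry4 was also not called without hypoxic smooth muscle replicate 1 (0.36), and Fgfr3 was not called without hypoxic proliferating replicate 3, the library that holds all 5 hypoxic proliferating counts.

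Chondrocyte and osteoblast cultures, which share the osteogenic start, were compared directly. At 21% O2, Dusp4 (4.52, SE 0.37), Etv4 (4.42, SE 0.53) and Dusp6 (1.14, SE 0.22) were higher in chondrocyte cultures, and Fgfr2 (−1.97, SE 0.17), Fgfr1 (−0.83, SE 0.10), Spry2 (−0.93, SE 0.17) and Spry4 (−1.39, SE 0.42) were lower on the log2 scale, where 59.7% of all genes were called, 28.6% higher and 31.1% lower. Spry4 was not called without normoxic chondrocyte replicate 1 (−1.31) or 2 (−1.32) or normoxic osteoblast replicate 2 (−1.21). Its call was also lost under an alternative that kept all libraries. Etv5 (0.53, SE 0.35) was not called, but was under an alternative that kept all libraries. Fgfr3, at 0.96 (SE 0.84), was not called, but was at 2.67 and called without normoxic osteoblast replicate 4, as was Spry1 at −0.75. At 0.5% O2 only Dusp4 was higher in chondrocyte cultures (1.35, SE 0.15) and 8 genes were lower, where 57.6% of all genes were called, 28.6% higher and 29% lower. Spry4 (−2.90, SE 0.22), Fgfr2 (−3.02, SE 0.15) and Fgfr3 (−2.29, SE 0.33) differed most, and Fgfr1 (−0.02, SE 0.10) was not called. Spry1 (−0.59, SE 0.19) lost its call without hypoxic chondrocyte replicate 1 (−0.52) or 3 (−0.55) or hypoxic osteoblast replicate 2 (−0.53). An alternative that kept all libraries also lost it. The directions of Dusp6 and Etv4 thus differed between oxygen levels. Both were higher in chondrocyte cultures at 21% O2 and lower at 0.5% O2 (−1.46, SE 0.12 and −0.93, SE 0.17). This difference was not tested as a term of its own. At 21% O2, proliferation markers summed to 489 to 787 CPM in chondrocyte and 109 to 190 CPM in osteoblast cultures. Osteoblast markers summed to 38600 to 47000 against 6740 to 10500 CPM, and smooth muscle markers to 2080 to 2540 against 3680 to 5200 CPM. The part of these markers in the differences was not tested.

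The 10 genes were chosen with earlier results of these data known, so counts of them called are no test of the set against all genes. A stricter call, which also required a log2 change of at least 1 in size, set the counts against lower backgrounds. It kept 9 of the 10 genes in normoxic chondrocyte cultures (35.3% of all genes tested), 10 in normoxic osteoblast (44.2%) and 10 in normoxic smooth muscle cultures (39.3%), each against proliferating cells. At 0.5% O2 it kept 8 in chondrocyte (31.8%), 10 in osteoblast (34.3%) and 4 in smooth muscle cultures (41.5%). For the effect of oxygen it kept 0 in proliferating cells (18.6%), 3 in chondrocyte (6.27%), 3 in osteoblast (22.4%) and 7 in smooth muscle cultures (49.4%). Between chondrocyte and osteoblast cultures it kept 5 at 21% O2 (23.6%) and 5 at 0.5% O2 (22.1%). Of the interaction terms it kept 4 in the chondrocyte (14.1%), 3 in the osteoblast (26.7%) and 6 in the smooth muscle condition (50%).

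Other genes of the pathway were counted from lists made by role in the pathway. Of 18 FGF ligand genes, 5 to 8 were tested in any comparison, the rest being too low. In normoxic chondrocyte, osteoblast and smooth muscle cultures 4 of 7, 3 of 6 and 4 of 6 were higher than in proliferating cells and 3, 2 and 1 lower, where 37.7, 40.9 and 40.8% of all genes were higher and 37.2, 37.8 and 38.9% lower. In the hypoxic counterparts 2 of 8, 2 of 7 and 1 of 7 were higher and 3, 4 and 3 lower, where 34.9, 36.2 and 33.8% of all genes were higher and 34.6, 35.1 and 36.2% lower. At 0.5% O2 against 21% O2, 3 of 7 were higher and 0 lower in proliferating cells, and 2 and 1 of 7 in chondrocyte cultures. They were 0 and 4 of 5 in osteoblast, and 1 and 4 of 6 in smooth muscle cultures. Of all genes, 33.1, 10.4, 27 and 35.4% were higher in these oxygen comparisons and 32.3, 11.8, 27.3 and 40.2% lower. Fgf2, the gene of basic FGF itself, was at 0.555 ± 0.062 CPM (SD, n = 4) in normoxic proliferating cells and 30.2 ± 1.4 CPM (SD, n = 4) in normoxic osteoblast cultures, a log2 fold change of 5.81. Fgf18, a ligand known from bone and cartilage, held 13.9 ± 7.1 CPM (SD, n = 4) in normoxic and 0.549 ± 0.078 CPM (SD, n = 3) in hypoxic osteoblast cultures, and fell by 4.64 (SE 0.66) on the log2 scale. Of the 15 other receptors and co-receptors, 10 of 11 tested were higher and 0 lower in normoxic chondrocyte, 11 of 12 higher and 0 lower in normoxic osteoblast, and 11 of 12 higher and 1 lower in normoxic smooth muscle cultures, where 37.7, 40.9 and 40.8% of all genes were higher. The list medians were 1.86, 1.82 and 1.61. At 0.5% O2, 7 of 11 were higher and 3 lower in chondrocyte, 8 and 2 in osteoblast, and 2 and 6 in smooth muscle cultures, with medians of 0.90, 0.84 and −0.31, where 34.9, 36.2 and 33.8% of all genes were higher. Sdc3, a heparan sulphate proteoglycan gene, averaged 1651 ± 176 CPM (SD, n = 4) in normoxic chondrocyte cultures and 96.6 ± 4.1 CPM (SD, n = 4) in normoxic proliferating cells.

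The genes of the signalling cascade itself went both ways. Of 19 genes from Frs2 to the ribosomal S6 kinases, 8 were higher and 6 lower in normoxic chondrocyte, 7 and 6 in normoxic osteoblast, and 8 and 8 in normoxic smooth muscle cultures. In either direction, 74.9, 78.7 and 79.7% of all genes were called in these comparisons. The list medians were 0.07, 0.01 and −0.05, against −0.003, 0.07 and 0.03 over all genes. Gab1, an adaptor of receptor signalling, rose by 2.31 in normoxic osteoblast and 2.64 in normoxic smooth muscle cultures on the log2 scale.

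Of 11 other feedback genes tested, 8 fell in normoxic chondrocyte, 8 in normoxic osteoblast and 9 in normoxic smooth muscle cultures, where 37.2, 37.8 and 38.9% of all genes fell. The list medians were −1.38, −1.11 and −1.14. At 0.5% O2, 7 of 11 fell in each condition, with 0, 4 and 1 higher in chondrocyte, osteoblast and smooth muscle cultures, where 34.6, 35.1 and 36.2% of all genes fell. In the oxygen comparisons 6 of 11 were higher and 4 lower in proliferating cells, 3 and 2 of 11 in chondrocyte, 6 and 1 of 11 in osteoblast, and 4 and 4 of 10 in smooth muscle cultures. The shares of all genes that were higher there were 33.1, 10.4, 27 and 35.4%, and those lower 32.3, 11.8, 27.3 and 40.2%. Dusp5, another ERK phosphatase, fell from 95.5 ± 3.3 CPM to 10.7 ± 2.7, 9.66 ± 1.07 and 11.0 ± 1.1 CPM (SD, n = 4 each). Il17rd, which encodes the FGF antagonist Sef, went the other way in osteoblast and smooth muscle cultures, from 1.66 ± 0.23 CPM to 23.4 ± 10.5 and 53.4 ± 3.7 CPM (SD, n = 4 each), and rose by 3.87 and 5.09 on the log2 scale. At 0.5% O2 Il17rd was at 1.25 ± 0.23 CPM in osteoblast and 2.11 ± 0.92 CPM in smooth muscle cultures (SD, n = 3 each).

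Of 13 other ERK target genes, 9 fell and 3 rose in each of the 3 normoxic differentiation conditions, where 37.2 to 38.9% of all genes fell and 37.7 to 40.9% rose. Fosl1, an AP-1 subunit, fell from 235 ± 18 CPM to 0.688 ± 0.576 CPM (SD, n = 4 each) in normoxic osteoblast cultures. At 0.5% O2 in osteoblast cultures, 10 of the 13 were higher and 1 lower than at 21% O2, where 27% of all genes were higher and 27.3% lower, with a median log2 fold change of 1.03 against −0.03 over all genes, and Fosl1 rose by 6.50 (SE 0.42) and Fos by 4.41 (SE 0.18). In smooth muscle medium 8 were higher and 2 lower at 0.5% O2, where 35.4% of all genes were higher, with a median of 1.40 against −0.12. In chondrocyte cultures 2 were higher and 4 lower, where 10.4% of all genes were higher and 11.8% lower, with a median of −0.10 against −0.006.

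Genes with the most similar pattern were found by Pearson's r of log2(CPM + 1) over the 28 libraries among 10099 genes with a mean of at least 5 CPM. These correlations describe libraries that share groups and depth. For Fgfr1 one of them was Sorl1 (0.95), for Fgfr2 they were Otulinl and Daam2 (0.975 each), and for Fgfr3 Perp (0.967) and Col6a2 (0.961). Spry1 was nearest to Gab1 (0.945) and Sesn3 (0.944), Spry2 to Itga6 (0.962) and Rapgef3 (0.948), and Spry4 to Twist2 (0.957). Dusp4 was nearest to Mpp6 (0.974) and Rps6ka4 (0.967), and Dusp6 to Adam8 (0.972) and Msln (0.959). Etv4 was nearest to Kifc5b (0.982) and Prr11 (0.977), and Etv5 to Sipa1l3 (0.981) and Areg (0.969). Without the hypoxic smooth muscle libraries, 10 of the 20 nearest genes, counted as 2 for each of the 10, were still among the nearest. Between the genes themselves, r was highest for Dusp6 with Etv4 (0.936) and Etv5 (0.921) and lowest for Fgfr2 with Etv4 (−0.919).

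The authors' deposited tables of log2 fold changes cover 10 of these comparisons. The 98 values that both they and the present fits give for these genes had the same sign in all 98 cases, with a median absolute difference of 0.018. Apart from Fgfr3 the largest absolute difference was 0.402. Fgfr3 in the osteoblast oxygen comparison differed by more, at 0.39 in the authors' deposited table and 0.99 in the present fit.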

How the data were processed

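Total RNA (RNeasy plus kit) went into a stranded Novogene library kit, per the labels' protocols. The submitters' processing notes name HISAT2 2.0.5, StringTie 1.3.3b, featureCounts 1.5.0-p3 and the mm10 build, and the strand setting of the counting is not given in the sources used here. The main table holds raw read counts per gene as the authors deposited them, for 54429 genes, of which 28192 have a count. The authors' deposited comparison tables (10) give log2 fold changes and p-values, per the file headers, and only their log2 fold changes were set beside the fits. The 70 further per-library columns of those tables were not used.

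Counts were tested with edgeR 4.0.16 in R 4.3.3 (TMM scaling, filterByExpr, robust quasi-likelihood fit on the groups compared, Benjamini-Hochberg adjustment over all genes tested, called at an adjusted p under 0.05). The interaction terms used the 4 groups concerned. SEs are the log2 fold change over the square root of F. Alternatives were edgeR with DESeq2-style size factors or library size alone, no filter, at least 10 counts in every library, DESeq2 1.42.0, limma 3.58.1 voom, all 8 groups in one fit, a replicate block, a fold threshold and each library left out. The fit was tested on simulated data. Levels are CPM with TMM factors over all 28 libraries, RPKM uses GENCODE vM21 exon lengths on GRCm38, and 54314 of 54330 gene IDs with a symbol matched that annotation. Receptor shares were also computed with the longest transcript's length, and Fgfr3 ratios with each library left out, alternatives chosen after seeing the data. Intervals cover counting error only.

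The 10 genes and all lists were chosen with earlier results of these data known. All 10 are named. From each other list, at most the 3 called genes with the largest log2 fold change and a mean of at least 1 CPM could be named per comparison. Replicate numbers were not used as pairs: no comparison of 12 had every same-number correlation over 0.1. The labels do not say whether same-number libraries were handled together, and these correlations cannot show it. Exons of Fgfr1, Fgfr2, Fgfr3 and Spry1 overlap another gene's over 1.7%, 3%, 13.9% and 24.4% of their length. Promoter windows come from RefSeq (GRCm38.p6). Windows on chr18, where Spry4 lies, were left out before genes were matched. Of the 10 genes 6 then matched, and windows that overlap an exon were not used. Total counts per library were 19869271 to 64693346. Some genes with a similar pattern are not reported here.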

Additional observations from a re-analysis of the deposited data

Results flagged for a closer look

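In the 40 normoxic gene and condition groups of 4 libraries, 5 had 1 library far from the others, where chance alone flags about 1 group in 20. In normoxic osteoblast cultures this was replicate 4 for Fgfr1 (412.31 CPM), Fgfr2 (955.83 CPM) and Fgfr3 (158.57 CPM), the library that also held the most chondrocyte marker RNA of its group. In normoxic smooth muscle cultures it was replicate 4 for Fgfr1 (497.57 CPM). In normoxic chondrocyte cultures it was replicate 1 for Dusp4 (28.701 CPM).

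The change from proliferating to differentiated cells differed between oxygen levels, by the interaction term, for 18 of the 30 gene and condition pairs. Of all genes, 43.5, 54.2 and 70.4% were called in the chondrocyte, osteoblast and smooth muscle terms, so this count is near the background. In the chondrocyte condition these were Fgfr2 (−1.27), Spry1 (−1.24), Spry4 (−1.14) and Etv5 (−1.02), all lower at 0.5% O2. In the osteoblast condition Dusp4 (2.98), Dusp6 (2.26) and Etv4 (5.28) were higher and Fgfr1 (−0.63) was lower. In the smooth muscle condition Dusp4 (4.39), Dusp6 (1.39), Etv4 (4.45), Etv5 (0.89) and Spry4 (0.50) were higher, and Fgfr1 (−0.72), Fgfr2 (−4.09), Fgfr3 (−8.20), Spry1 (−2.48) and Spry2 (−0.46) were lower. The Fgfr3 term is a fitted value that rests on 2, 5 and 1 counts in 3 of its 4 groups, and it was −4.29 and not called without hypoxic proliferating replicate 3.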

How the results depend on the processing

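Of 2417 recomputed log2 fold changes of the 10 genes, 2321 kept their direction and call, 36 lost the call, 38 gained it and 22 turned sign. Scaling with DESeq2-style size factors changed none of 148. With library size alone, the hypoxic smooth muscle change from proliferating cells turned to −0.44 for Fgfr1, −0.42 for Fgfr2, −0.76 for Spry1 and −0.80 for Dusp4, the oxygen effect of Etv5 in smooth muscle medium to −0.22, and the smooth muscle interactions of Spry4 and Etv5 to −0.83 and −0.45. That scaling moved the share of called genes that were higher from 48.3 to 15.0% in hypoxic smooth muscle against proliferating cells, from 46.8 to 15.6% in the smooth muscle oxygen comparison and from 49.6 to 16.6% in its interaction. The share moved from 50.3 to 34.7% and from 50.2 to 31.8% in normoxic and hypoxic chondrocyte cultures, from 50.8 to 38.2% in hypoxic osteoblast cultures, from 46.9 to 31.8% and from 49.6 to 36.9% in the chondrocyte and osteoblast oxygen comparisons, and from 48.0 to 34.3% between normoxic chondrocyte and osteoblast cultures. With limma-voom, Spry4 in the osteoblast oxygen comparison was 0.075, and the interactions were 0.0066 for Etv4 in chondrocyte and 1.00 for Fgfr3 in osteoblast cultures. Requiring a log2 change of at least 1 left 5069, 6387 and 5727 genes in the normoxic chondrocyte, osteoblast and smooth muscle comparisons, 4567, 4912 and 5839 in the hypoxic ones, 2628, 891, 3252 and 7372 in the oxygen comparisons of proliferating, chondrocyte, osteoblast and smooth muscle cultures, 3378 and 3118 between chondrocyte and osteoblast cultures, and 2153 and 4128 in the chondrocyte and osteoblast interactions. Of the 10 genes it left 4 in hypoxic smooth muscle against proliferating cells, 0, 3 and 3 in the proliferating, chondrocyte and osteoblast oxygen comparisons, 5 between hypoxic chondrocyte and osteoblast cultures and 6 in the smooth muscle interaction. One fit of all 8 groups called 2 genes in the proliferating oxygen comparison. The replicate block called 9 in the osteoblast oxygen comparison, although replicate numbers are not known to pair the libraries. For these 2 counts the share of all genes under the same fit is not given, so they are not read further. With 1 library left out, the osteoblast oxygen comparison called 5 to 9 of the 10 genes and 6618 to 9377 of all genes (7890 with all libraries). The chondrocyte oxygen comparison called 2091 to 3359 genes, the lowest without hypoxic chondrocyte replicate 3 (3155 with all). Leaving out 1 library gave Etv4 −0.21 to 0.016 in hypoxic smooth muscle against proliferating cells. In the oxygen comparisons it gave Dusp4 −0.25 to 0.25 and Etv4 −0.77 to 0.027 in chondrocyte and Spry4 −0.27 to 0.032 in smooth muscle cultures. Fgfr1 between hypoxic chondrocyte and osteoblast cultures was −0.13 to 0.048. The interactions were −0.38 to 0.11 for Dusp4 and −0.36 to 0.44 for Etv4 in chondrocyte, and −0.28 to 0.014 for Fgfr2 and −1.57 to 3.03 for Fgfr3 in osteoblast cultures. With the longest transcript's length, 10 of 24 receptor shares moved by more than 1 SD. The cause of these changes was not tested.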
